A study of Drosophila melanogaster with 12 samples.

Results

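Pm2 neurons of the fly visual system were compared with all neurons of the optic lobe by RNA sequencing of sorted cells. The comparison used 6 of the 12 libraries of the study, 3 of Pm2 and 3 of neurons, and covered 10528 of the 16272 genes in the deposited table, a gene being tested where 3 or more of the 12 libraries had 10 or more counts of it. The flies were adults aged 3 days of the Canton-S strain of Drosophila melanogaster. In the Pm2 group, a Gal4 line for this cell type drove the nuclear red fluorescent reporter UAS-Red Stinger. In the neuron group, the same reporter was driven by the Elav line, and elav is expressed in neurons of every type. Pm2 cells can therefore themselves be part of the neuron group, in a share that the labels do not give. Brains were dissociated, fluorescent cells were sorted, and full-length cDNA was made with SMART-Seq v4 from picogram amounts of RNA. The remaining 6 libraries, of T4 neurons and of glia, are quoted as levels where they help to place a gene.

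Each population came from its own driver line, so a difference between Pm2 and neurons cannot be told apart from a difference between driver lines. The labels do not say whether libraries of one group came from separate animals or pools, so p-values measure the spread between libraries, which may be technical. A level of the neuron group is an average over many cell types, and in such bulk samples fewer cells that use a gene and less RNA of it per cell cannot be told apart.

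Pm cells are local neurons of the medulla, the largest neuropil of the optic lobe, and their arbors lie in its proximal layers. The fly brain uses acetylcholine as its main fast excitatory transmitter, GABA as its main inhibitory one, and glutamate through both cation channels and chloride channels. A neuron type is specified by a combination of transcription factors, among them homeodomain, LIM-homeodomain and nuclear receptor proteins. These control the transmitter, receptor, channel and cell surface genes that set what the neuron releases, what it responds to and which partners it contacts.

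The Pm2 libraries held 51397068 to 57811629 counts and the neuron libraries 35012892 to 44502669. A count was found for 10097 to 10138 genes in Pm2 libraries and for 10777, 12742 and 11318 genes in neuron libraries 1, 2 and 3, so neuron library 2 stood apart in its number of genes. Without that library 2288 genes were called higher and 2449 lower in Pm2, close to the counts given next. On the scale of log2(CPM + 1) across tested genes, the Pearson correlation of a Pm2 library with a neuron library was 0.901 to 0.906, that of any 2 Pm2 libraries 0.995 to 0.996, and that of any 2 neuron libraries 0.991 to 0.993. They describe how alike the libraries were across genes, which are not independent replicates. Levels are given as CPM, counts per 1000000 of a library total that was scaled by the trimmed mean of M values method (TMM). A gene was called at an adjusted p below 0.05 in edgeR's quasi-likelihood test, adjusted by Benjamini-Hochberg over all genes tested, and log2 differences are Pm2 minus neurons with their standard error (SE). Means are over the 3 libraries of a group, and where a gene's spread is not printed the groups did not overlap, unless an overlap or a missed call is stated.

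Of the 10528 genes, 5094 (48.4%) were called, 2364 (22.5%) higher and 2730 (25.9%) lower in Pm2. The higher genes differed mostly by small factors, the lower ones often by very large ones. Among higher genes 1078 differed at least 2-fold, 466 at least 4-fold and 122 at least 16-fold. Among lower genes 1578 differed at least 2-fold, 1196 at least 4-fold and 891 at least 16-fold. No Pm2 library held a count of 393 of the lower genes, and 21 of the higher genes were without a count in every neuron library. Genes without a count in a group passed the low-count filter only through libraries of other groups. The neuron group also spans many cell types and can hold Pm2 cells, so these counts are a description. All 3 Pm2 libraries stood above all 3 neuron libraries for 27.4% of genes and below them for 30.7%. Without any scaling of the counts the split turned round, to 3624 higher and 1594 lower genes, and the median log2 difference of all genes became 0.27, against -0.08 with TMM scaling. When all 12 libraries entered the fit, 1637 genes were higher and 2112 lower.

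**Figure D1:**
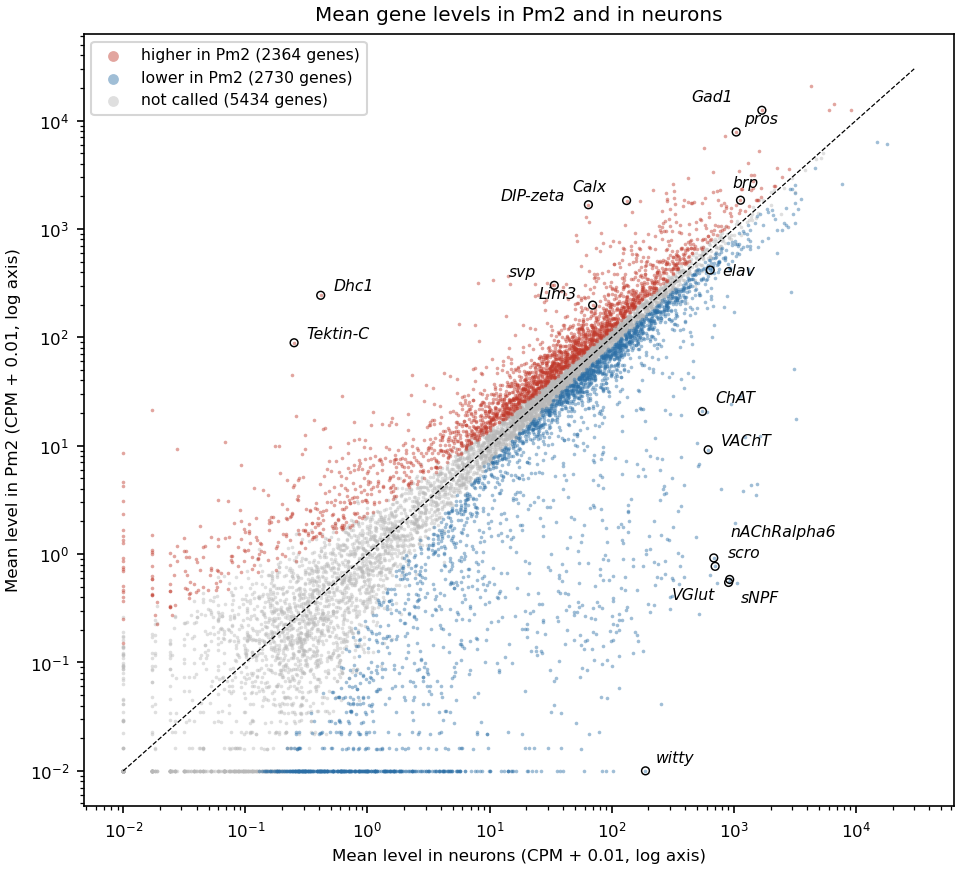
Mean level of each of the 10528 genes in Pm2 (y axis) and in neurons (x axis), in CPM plus 0.01 on log axes; each point is a gene, coloured by its call, and the dashed line marks equal levels. Genes called lower reach down to no count in Pm2 from mean levels of over 100 CPM in neurons, while most genes called higher lie close above the line.

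Genes with high levels in neurons were often lower in Pm2. Of the 1802 genes with a mean level of 100 to 1000 CPM in neurons, 40.2% were lower and 27.0% higher in Pm2, and 113 were at least 16-fold lower. Of the 126 genes above 1000 CPM in neurons, 53.2% were lower and 25.4% higher, 11 of them at least 16-fold lower. No gene of either range was 16-fold higher in Pm2. The neuron level that sorted these genes also enters their difference, so the shares are a description.

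**Figure D2:**
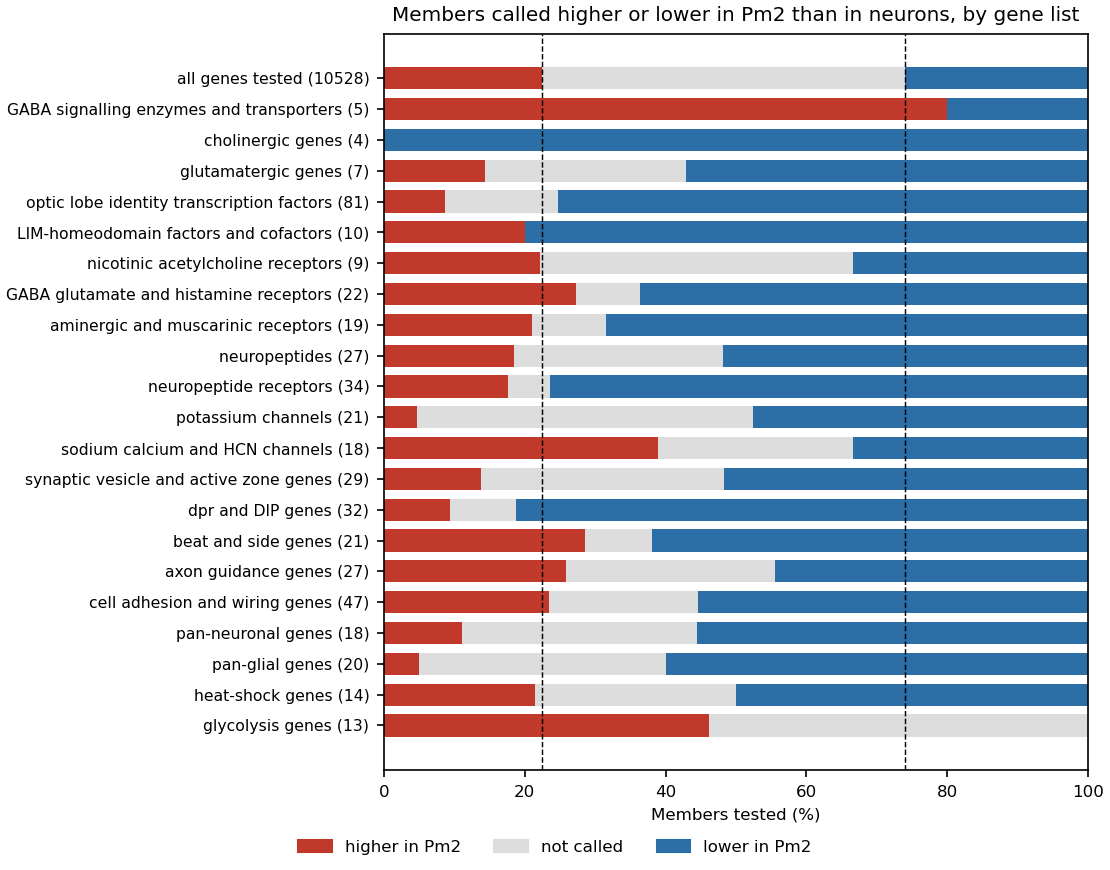
Share of the tested members of selected gene lists (y axis, number tested in brackets) that were called higher, not called or called lower in Pm2 than in neurons (x axis, percent). The top bar and the dashed lines give all 10528 genes. The GABA list has the largest share of members higher, 80.0%. All 4 members of the cholinergic list are lower. Next come 81.2% of dpr and DIP genes and 80.0% of LIM-homeodomain factors and cofactors. They are followed by 76.5% of neuropeptide receptors and 75.3% of optic lobe transcription factors.

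The genes that mark Pm2 neurons were all higher in the Pm2 libraries. Gad1 (chromosome 3L, 4074077 to 4088744, build BDGP6, as for all coordinates given), glutamate decarboxylase, which makes GABA, stood at 13252, 11784 and 12299.8 CPM in Pm2 libraries 1 to 3, against 1571, 1782 and 1739 CPM in neuron libraries 1 to 3. The lowest Pm2 library was more than 6 times the highest neuron library. The log2 difference was 2.87 ± 0.08 (adjusted p = 1.03e-09). svp (chromosome 3R, 12258737 to 12302785), a nuclear receptor of the COUP-TF family, stood at 299, 284 and 323 CPM in Pm2, against 34.2, 30.8 and 36.6 CPM in neurons (log2 difference 3.16 ± 0.11, adjusted p = 3.83e-09). Lim3 (chromosome 2L, 19079256 to 19108427), a LIM-homeodomain factor, stood at 206, 196 and 192 CPM in Pm2, against 72.3, 69.3 and 67.9 CPM in neurons (log2 difference 1.5 ± 0.09, adjusted p = 2.43e-07). The groups did not overlap for any of the 3 genes. With all 12 libraries in the fit Lim3 was not called (adjusted p = 0.0975). For comparison, T4 neurons averaged 20.9 CPM of Gad1, 11.4 CPM of svp and 0.744 CPM of Lim3.

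Of the 5 genes of GABA handling tested, 4 (80.0%, against 22.5% of all genes) were higher. The plasma membrane transporter (20.0%, against 25.9%) was lower. VGAT, the vesicular GABA transporter, stood at 485, 490.1 and 507 CPM in Pm2, against 284, 234 and 258 CPM in neurons, a log2 difference of 0.93 ± 0.09 (adjusted p = 1.64e-05, and 0.348 with all 12 libraries in the fit). Gabat, the transaminase that degrades GABA, listed as CG7433, averaged 721 ± 45.4 CPM in Pm2 and 400.3 ± 88.9 CPM in neurons (SD, n = 3 each, adjusted p = 0.000609). Ssadh, which carries out the next step of GABA breakdown, averaged 379 ± 29.7 CPM in Pm2 and 221 ± 20.2 CPM in neurons (SD, n = 3 each, adjusted p = 0.000109). Their log2 differences were 0.85 ± 0.14 for Gabat and 0.78 ± 0.10 for Ssadh. Gat, the GABA transporter of the plasma membrane, listed as CG1732, was low in both groups, with 2.64, 1.48 and 0.585 CPM in Pm2, against 11.3, 12.2 and 13.8 CPM in neurons, and was called lower (adjusted p = 0.000254). Its mean level in the glia libraries was 6967 CPM.

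Cholinergic genes were far lower in Pm2. All 4 tested (100.0%, against 25.9% of all genes) were lower, with a median log2 difference of -5.41, against -0.08 for all genes. ChAT, the enzyme that makes acetylcholine, listed as Cha, stood at 23.1, 19.4 and 19.5 CPM in Pm2, against 598, 569.8 and 492 CPM in neurons (adjusted p = 8.27e-10). VAChT, which loads acetylcholine into vesicles, stood at 6.84, 11.1 and 9.57 CPM in Pm2, against 547, 731 and 572 CPM in neurons (adjusted p = 3.74e-09). ChT, the choline transporter listed as CG7708, was at 2.25, 2.49 and 0.604 CPM in Pm2, against 306, 364 and 285 CPM in neurons (adjusted p = 6.69e-08). Ace, acetylcholinesterase, which breaks acetylcholine down at synapses and is not restricted to cells that release it, differed least of the 4, with 448, 421 and 410 CPM in Pm2 and 1314, 1330.2 and 1296 CPM in neurons (log2 difference -1.62 ± 0.08, adjusted p = 4.99e-08).

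VGlut, the vesicular glutamate transporter, stood at 0.372, 0.46 and 0.887 CPM in Pm2, against 722, 1082 and 969.5 CPM in neurons (adjusted p = 8.74e-10), so that every Pm2 library was below 1 CPM. Of the 7 genes of glutamate handling, 1 (14.3%) was called higher and 4 (57.1%) lower, against 22.5% and 25.9% of all genes. The median log2 difference was -0.24 and became 0.12 without scaling. Eaat1, a glutamate uptake transporter, averaged 1.42 ± 0.851 CPM in Pm2 and 488 ± 136 CPM in neurons, and Gs2, a glutamine synthetase, 19.2 ± 8.89 CPM in Pm2 and 71.9 ± 8.29 CPM in neurons (SD, n = 3 each). Eaat1 and Gs2 are genes of glia as well, and their mean levels in the glia libraries were 7800.5 and 11228 CPM. Eaat2, a second uptake transporter, was called higher at 244 CPM in Pm2 and 196 CPM in neurons, a call that ended with all 12 libraries in the fit (adjusted p = 0.325) and with library totals in place of TMM scaling. The glutamine synthetase Gs1 averaged 279 CPM in Pm2 and 331 CPM in neurons; it was called lower by a small margin (adjusted p = 0.0297), not without Pm2 library 2 or 3 or neuron library 2 or 3, and stood 0.12 higher on the log2 scale without scaling (adjusted p = 0.485). Gdh and Got2, which interconvert glutamate and other metabolites, did not pass the test and overlapped between the groups, with 773 CPM of Gdh in Pm2 and 716 CPM in neurons, and 83.0 CPM of Got2 in Pm2 and 87.3 CPM in neurons. Gdh was called higher without neuron library 1 and without scaling.

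Of 13 genes of monoamine and histamine handling tested, 7 (53.8%) were lower and 1 (7.69%) was higher, against 25.9% and 22.5% of all genes. The count lower ranged from 5 with all 12 libraries in the fit to 8 without Pm2 library 1. Vmat, the vesicular monoamine transporter, stood at 0.868, 0 and 0.0378 CPM in Pm2, against 297, 282 and 321 CPM in neurons (adjusted p = 2.33e-07). Ddc, dopa decarboxylase of dopamine and serotonin synthesis, averaged 20.3 ± 1.3 CPM in Pm2 and 603 ± 90.8 CPM in neurons, and Tbh, which makes octopamine, 2.06 ± 0.752 CPM in Pm2 and 83.7 ± 1.62 CPM in neurons (SD, n = 3 each). CarT, a carcinine transporter listed as CG9317, was the higher one, at 7.31 CPM in Pm2 and 3.65 CPM in neurons, and lost its call with all 12 libraries in the fit (adjusted p = 0.245).

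**Figure D3:**
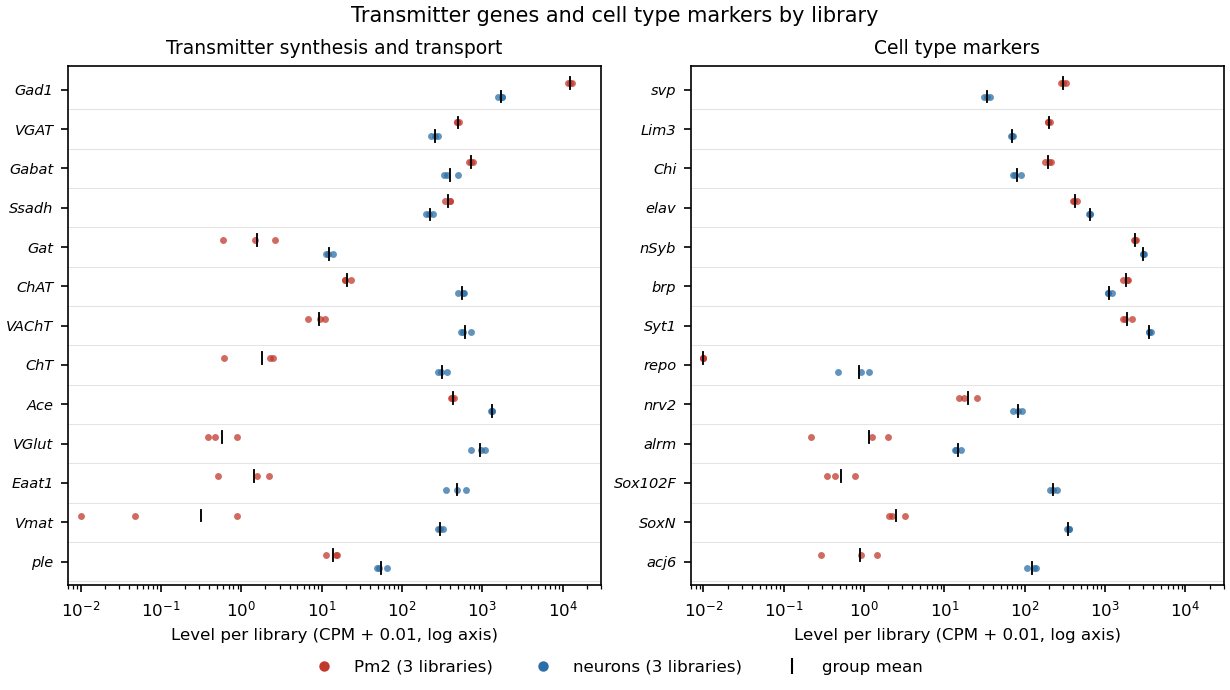
Level of transmitter genes (left) and cell type markers (right) in each library, in CPM plus 0.01 on a log axis; red points are the 3 Pm2 libraries, blue points the 3 neuron libraries, and bars the group means. Gad1, svp and Lim3 lie to the right in Pm2, at means of 12445, 302 and 198 CPM, and VGlut lies near the left edge, at 0.573 CPM.

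Transcription factors of optic lobe cell types were mostly near absent from Pm2. Of 110 factors listed, 81 passed the filter on low counts. Of these 7 were higher and 61 lower, against 22.5% and 25.9% of all genes, and their median log2 difference was -7.63. Besides svp and Lim3, the higher factors were pros, hth, bi, TfAP-2 and hb. pros (chromosome 3R, 11328480 to 11407627), a homeodomain protein known for its role as cells leave the stem cell state, stood at 8177, 7675 and 7665 CPM in Pm2, against 886, 1239.7 and 1012 CPM in neurons (log2 difference 2.91 ± 0.12, adjusted p = 1.61e-08). In the glia libraries, pros averaged 35732 CPM. hth, a homeodomain partner of Hox proteins that also marks the earliest born medulla neurons, stood at 888, 769 and 731 CPM in Pm2, against 333, 291 and 290.1 CPM in neurons (log2 difference 1.39 ± 0.10, adjusted p = 1.55e-06). bi, a T-box factor also called omb, stood at 393, 415 and 400 CPM in Pm2, against 165, 155 and 142 CPM in neurons (log2 difference 1.39 ± 0.09, adjusted p = 5.47e-07). TfAP-2 averaged 294 ± 3.59 CPM in Pm2 and 108 ± 13.9 CPM in neurons (SD, n = 3 each, adjusted p = 1.49e-06). It is also a factor of T4 neurons, whose libraries averaged 422 CPM. hb, a zinc finger factor of early neuroblast identity, was low in both groups, at 3.9, 3.17 and 3.1 CPM in Pm2, against 0.553, 0.658 and 1.11 CPM in neurons (adjusted p = 0.0014).

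The 61 lower factors included known markers of other optic lobe neurons. scro, an NK2 homeodomain factor, stood at 0.85, 0.998 and 0.434 CPM in Pm2, against 750.5, 711 and 648 CPM in neurons (adjusted p = 3.48e-10). Sox102F and SoxN, high mobility group factors of T4 and T5 neurons among others, averaged 0.511 and 2.5 CPM in Pm2, against 228 and 350.1 CPM in neurons. acj6, a POU factor of cholinergic types, averaged 0.882 CPM in Pm2 and 125 CPM in neurons. The Pax6 genes toy and ey averaged 0.388 and 0.0959 CPM in Pm2, against 298 and 71.9 CPM in neurons. bsh, a homeodomain factor of lamina and medulla neurons, and erm, a zinc finger factor, averaged 0.0252 and 0.185 CPM in Pm2, against 31.7 and 96.8 CPM in neurons. No count of Ets65A, hbn, ham or tj was found in any Pm2 library. Against a floor of 3 counts over the Pm2 group, Ets65A was at least 5551-fold and the homeodomain gene hbn at least 4842-fold lower in Pm2. A smaller difference was seen for ct, a homeodomain factor of several optic lobe types, which averaged 343 ± 17.2 CPM in Pm2 and 561 ± 10.5 CPM in neurons (SD, n = 3 each, log2 difference -0.71 ± 0.08, adjusted p = 4.21e-05).

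Among LIM-homeodomain genes, Lim3 was the one higher in Pm2. Of 10 LIM-homeodomain factors and cofactors tested, Lim3 and the cofactor Chi (20.0%, against 22.5% of all genes) were higher. The other 8 (80.0%, against 25.9%) were lower. With all 12 libraries in the fit Chi was the 1 higher gene. Chi, the LDB protein that joins LIM-homeodomain factors into complexes, stood at 179, 200.4 and 209.5 CPM in Pm2, against 89.1, 75.7 and 72.2 CPM in neurons (log2 difference 1.31 ± 0.11, adjusted p = 4.62e-06). ap fell to 1.29, 0.825 and 1.17 CPM in Pm2, against 181, 211 and 224 CPM in neurons, and Lim1 to 0.124, 0.249 and 0.189 CPM in Pm2, against 133, 112 and 101 CPM in neurons. tup and Awh averaged 0.324 and 0.119 CPM in Pm2, against 78.4 and 21.8 CPM in neurons. Lmx1a (CG32105) and the related gene CG4328 had no count in Pm2 and averaged 14.2 and 14.1 CPM in neurons. The cofactors Ssdp and Bx were lower by smaller amounts, at 217 and 31.9 CPM in Pm2, against 374 and 92.4 CPM in neurons.

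**Figure D4:**
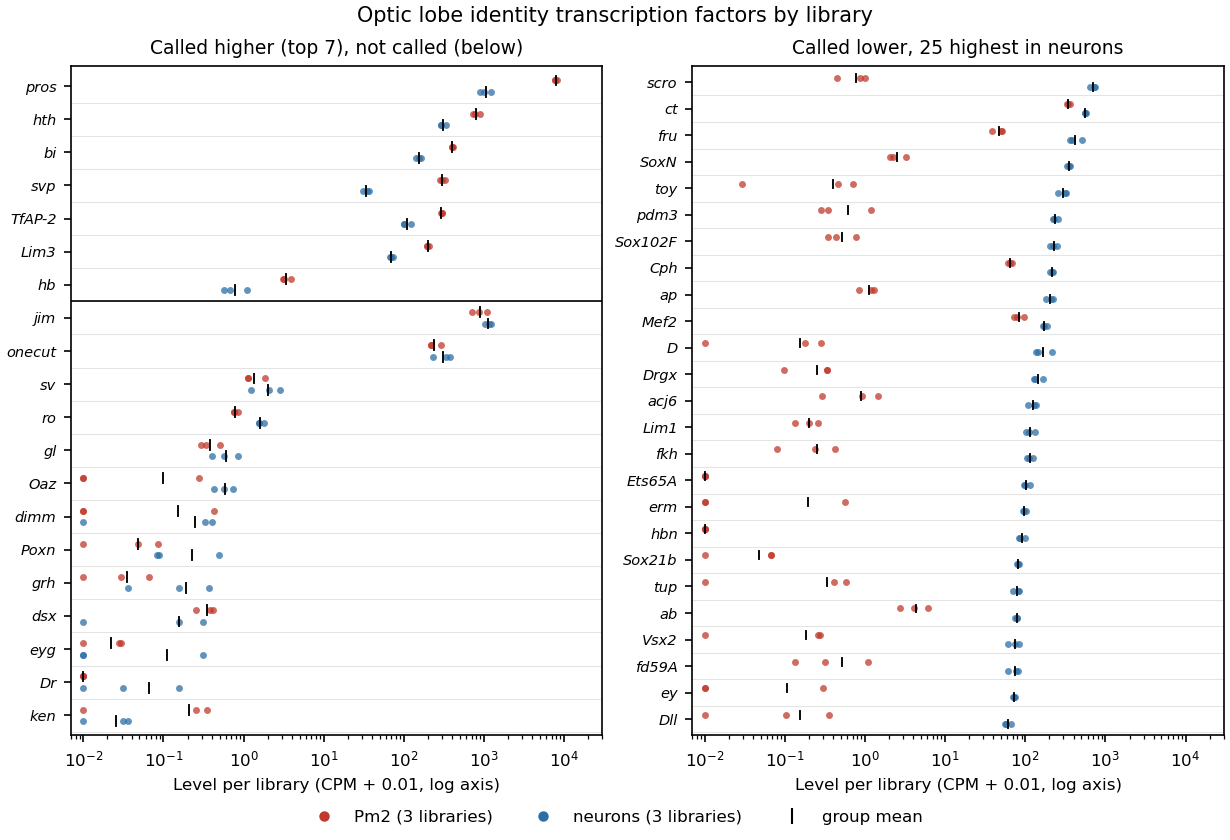
Level of optic lobe transcription factors in each library, in CPM plus 0.01 on a log axis; red points are Pm2 libraries, blue points neuron libraries, and bars group means. Left, the 7 factors called higher lie above the line and the 13 not called below it; right, the 25 factors called lower with the highest levels in neurons, most of them below 1 CPM in Pm2 and above 50 CPM in neurons.

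Single subunits of nicotinic receptors differed strongly, while the counts over the family were near those of all genes. Nicotinic acetylcholine receptors, the cation channels through which fly neurons are excited, had 9 subunits tested, of which 2 (22.2%, against 22.5% of all genes) were higher and 3 (33.3%, against 25.9%) lower, with a median log2 difference of 0.02, which lay between -0.08 and 0.38 under the alternatives. Without scaling 5 were higher and 2 lower. nAChRalpha7 stood at 4200.2, 3894 and 3999 CPM in Pm2, against 1564, 1192 and 1159.6 CPM in neurons (log2 difference 1.63 ± 0.11, adjusted p = 1.04e-06). nAChRalpha2 stood at 238, 248 and 251 CPM in Pm2, against 145, 104 and 104 CPM in neurons (log2 difference 1.06 ± 0.13, adjusted p = 8.04e-05). The subunits alpha6 and alpha3 were near absent from Pm2. nAChRalpha6 stood at 1.1, 0.748 and 0.887 CPM in Pm2, against 712, 678 and 665 CPM in neurons, and nAChRalpha3 at 4.61, 2.03 and 5.25 CPM in Pm2, against 261, 243 and 286 CPM in neurons. nAChRbeta1 overlapped between the groups, with 1106, 1104 and 1149.9 CPM in Pm2, against 1176, 1048 and 1099.8 CPM in neurons (adjusted p = 0.892). The remaining lower subunit, nAChRalpha4, averaged 173 CPM in Pm2 and 248 CPM in neurons with overlapping libraries; its call was lost without Pm2 library 2 or 3 and without neuron library 2 or 3.

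Per kilobase of annotated exon, alpha7 was the most abundant nicotinic subunit in Pm2, with 698 CPM per kilobase, ahead of beta1 with 377 CPM per kilobase. In neurons the order of these subunits was the reverse, with 226 CPM per kilobase of alpha7 and 373 CPM per kilobase of beta1. alpha2 and beta2 followed in Pm2 with 103 and 94.2 CPM per kilobase, and every other tested subunit was below 60 CPM per kilobase there.

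Among 22 receptors for GABA, glutamate and histamine, 6 (27.3%) were higher and 14 (63.6%) lower, against 22.5% and 25.9% of all genes. These were 4 and 12 with all 12 libraries in the fit. The 6 higher ones include the NMDA receptor genes Nmdar1 and Nmdar2. Nmdar2 (chromosome X, 1483625 to 1507809) stood at 1808, 1757 and 1909 CPM in Pm2, against 286, 284 and 273 CPM in neurons (log2 difference 2.70 ± 0.08, adjusted p = 1.51e-09). Nmdar1, the subunit that all NMDA receptors need, stood at 195, 167 and 170.4 CPM in Pm2, against 75.3, 93.7 and 92.3 CPM in neurons (log2 difference 1.03 ± 0.11, adjusted p = 3.66e-05). The kainate-type subunit KaiR1D, listed as CG3822, stood at 242, 231 and 247 CPM in Pm2, against 78.2, 101 and 80.8 CPM in neurons (adjusted p = 2.34e-06). GluClalpha, the glutamate-gated chloride channel that makes glutamate inhibitory, stood at 2547, 2258 and 2154 CPM in Pm2, against 1237, 1252 and 1042 CPM in neurons (log2 difference 0.98 ± 0.10, adjusted p = 1.75e-05).

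Several GABA receptor genes were lower. Rdl, the main GABA-gated chloride channel, stood at 602, 596 and 582 CPM in Pm2, against 2589.9, 2141 and 2053 CPM in neurons (log2 difference -1.93 ± 0.10, adjusted p = 8.52e-08). GABA-B-R1, a subunit of the metabotropic GABA receptor, averaged 119 ± 8.39 CPM in Pm2 and 383 ± 9.51 CPM in neurons (SD, n = 3 each, adjusted p = 1.12e-07). Its partner GABA-B-R2 overlapped between groups, at 328 CPM in Pm2 and 337 CPM in neurons (adjusted p = 0.757). GABA-B-R3 and CG8916, a predicted GABA-gated channel subunit, were near absent, at 0.18 and 0.801 CPM in Pm2, against 155 and 237 CPM in neurons. ort, the histamine receptor through which neurons respond to photoreceptors, stood at 0, 0.365 and 0.585 CPM in Pm2, against 129, 112 and 159 CPM in neurons. The metabotropic glutamate receptor mGluR averaged 2.0 CPM in Pm2 and 222 CPM in neurons, and the AMPA-type subunit GluRIA 1.27 CPM in Pm2 and 92.3 CPM in neurons.

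The muscarinic receptors mAChR-A and mAChR-B were higher in Pm2, and 4 dopamine receptors were lower. Of 19 aminergic and muscarinic receptors, 4 (21.1%, near the 22.5% of all genes) were higher and 13 (68.4%, against 25.9% of all genes) lower. mAChR-B, a muscarinic receptor coupled to inhibitory G proteins, stood at 659, 606 and 608 CPM in Pm2, against 74.2, 88.0 and 76.7 CPM in neurons (log2 difference 2.97 ± 0.10, adjusted p = 3.74e-09). mAChR-A, coupled to phospholipase C, stood at 602, 541 and 521 CPM in Pm2, against 193, 219 and 183 CPM in neurons (log2 difference 1.48 ± 0.10, adjusted p = 7.8e-07). The serotonin receptor 5-HT1A stood at 332, 308 and 308 CPM in Pm2, against 79.2, 89.5 and 92.4 CPM in neurons, and the octopamine receptor Oamb at 306, 300.4 and 302 CPM in Pm2, against 141, 131 and 122 CPM in neurons. The dopamine receptors Dop1R1, Dop1R2 and Dop2R averaged 0.359, 0.117 and 0.293 CPM in Pm2, against 103, 23.9 and 132 CPM in neurons. DopEcR, which binds dopamine and ecdysone, was lower by less, at 590.1 CPM in Pm2 and 1097 CPM in neurons. The serotonin receptor 5-HT2B had a single count over the 3 Pm2 libraries and averaged 29.9 CPM in neurons, while 5-HT1B overlapped between the groups, at 55.0 CPM in Pm2 and 55.4 CPM in neurons (adjusted p = 0.954).

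Of 38 neuropeptide precursors listed 27 were tested, with a median log2 difference of -3.66. Of these 5 (18.5%, against 22.5% of all genes) were higher and 14 (51.9%, against 25.9%) lower. Among the 15 with at least 100 counts in 3 libraries 7 were lower, and their median was 0.04. Nplp1, a precursor of several small peptides, stood at 1861, 1827 and 1537 CPM in Pm2, against 416, 512 and 446 CPM in neurons (log2 difference 1.93 ± 0.11, adjusted p = 1.85e-07). Dh44, a diuretic hormone related to corticotropin-releasing factor, stood at 181, 172 and 169.7 CPM in Pm2, against 33.8, 33.4 and 38.3 CPM in neurons (log2 difference 2.31 ± 0.10, adjusted p = 2.37e-08). ITP, ion transport peptide, was low in both groups, at 11.3, 6.29 and 6.93 CPM in Pm2, against 1.37, 1.68 and 1.99 CPM in neurons. Proc, which encodes proctolin, and amn made up the 5, and both lost their call with all 12 libraries in the fit, where 3 precursors were higher. The amn call was also lost without any single one of the Pm2 libraries and without neuron library 1 or 3. sNPF, short neuropeptide F, stood at 0.797, 0.153 and 0.661 CPM in Pm2, against 679.7, 1042 and 997 CPM in neurons, and Tk, tachykinin, at 0, 1.59 and 0.283 CPM in Pm2, against 668, 604 and 638 CPM in neurons. No count of CCHa1 or AstA was found in Pm2, where neurons averaged 20.4 CPM of CCHa1 and 15.5 CPM of AstA.

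Most neuropeptide receptors were lower in Pm2. Of 34 tested, 6 (17.6%, against 22.5% of all genes) were higher and 26 (76.5%, against 25.9%) lower. The median log2 difference was -6.25. NPFR, the receptor of neuropeptide F, stood at 162, 156 and 155 CPM in Pm2, against 11.9, 14.8 and 13.9 CPM in neurons (log2 difference 3.54 ± 0.12, adjusted p = 2.98e-09). Dh31-R, a calcitonin receptor relative that binds diuretic hormone 31, stood at 252, 240.4 and 226 CPM in Pm2, against 23.7, 27.3 and 20.0 CPM in neurons (log2 difference 3.34 ± 0.13, adjusted p = 1.03e-08). CCKLR-17D3, a receptor of the cholecystokinin type, stood at 447, 433 and 485 CPM in Pm2, against 56.9, 57.3 and 52.9 CPM in neurons (log2 difference 3.03 ± 0.09, adjusted p = 2.01e-09). Its neighbour CCKLR-17D1 averaged 106 CPM in Pm2 and 32.0 CPM in neurons. The receptors TrissinR and SIFaR completed the higher group, at 265 and 104 CPM in Pm2, against 38.6 and 34.7 CPM in neurons. All 6 stood above the neurons in every library, and none exceeded 50 CPM on average in T4. Among the lower receptors, AstA-R1 averaged 1.76 CPM in Pm2 and 123 CPM in neurons, and AstC-R1 and MsR1 had no count in Pm2, where neurons averaged 38.1 CPM of AstC-R1 and 59.6 CPM of MsR1.

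The potassium channels Shab and Shaker, of different classes, went in opposite directions. Of 21 potassium channel genes, Shab alone (4.76%, against 22.5% of all genes) was higher and 10 (47.6%, against 25.9%) were lower. Without scaling 5 were higher and 7 lower. A second gene was called higher without neuron library 2, with DESeq2 and without the filter on low counts. Shab, a delayed rectifier of the Kv2 class, stood at 2330.4, 2107 and 2314 CPM in Pm2, against 717, 790.1 and 678 CPM in neurons (log2 difference 1.63 ± 0.09, adjusted p = 1.2e-07). Sh, the fast inactivating Kv1 channel Shaker, stood at 263, 247 and 269.6 CPM in Pm2, against 3219, 2809 and 2722 CPM in neurons (log2 difference -3.49 ± 0.10, adjusted p = 8.74e-10). The calcium-activated channel SK averaged 60.9 ± 5.99 CPM in Pm2 and 464 ± 26.4 CPM in neurons (SD, n = 3 each). eag and Elk, channels of the ether-a-go-go family, fell to means of 3.63 and 0.532 CPM in Pm2, against 278 and 54.4 CPM in neurons. Shal and Shaw overlapped between the groups, at 283 and 174 CPM in Pm2, against 263 and 188 CPM in neurons (adjusted p = 0.425 and 0.336).

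Sodium, calcium and hyperpolarization-activated channels went in both directions. Of 18 sodium, calcium and hyperpolarization-activated channel genes 7 (38.9%) were higher and 6 (33.3%) lower, against 22.5% and 25.9% of all genes. With all 12 libraries in the fit 3 were higher and 3 lower, and without scaling 7 and 3. Ih, the hyperpolarization-activated cation channel, stood at 3406, 3047 and 2988 CPM in Pm2, against 1527, 1523 and 1379 CPM in neurons (log2 difference 1.09 ± 0.08, adjusted p = 1.91e-06). na, the sodium leak channel known as NALCN in mammals, stood at 636, 626 and 714 CPM in Pm2, against 145, 204 and 162 CPM in neurons (log2 difference 1.95 ± 0.13, adjusted p = 6.64e-07, and 0.0855 with all 12 libraries in the fit). Its subunit unc80 stood at 955, 1090.5 and 1233 CPM in Pm2, against 339, 400.2 and 354 CPM in neurons (adjusted p = 1.05e-06). Ca-alpha1D, the L-type calcium channel, stood at 1271, 1226 and 1219.7 CPM in Pm2, against 488, 548 and 545 CPM in neurons (log2 difference 1.23 ± 0.08, adjusted p = 6.36e-07). Ca-alpha1T, the T-type calcium channel, was nearly absent, at 4.0, 2.97 and 3.55 CPM in Pm2, against 1456, 1595 and 1474 CPM in neurons (adjusted p = 6.63e-11). Nlf-1, listed as Mid1 and known to promote the surface level of the sodium leak channel, stood at 5.23, 8.08 and 6.08 CPM in Pm2, against 479, 513 and 522 CPM in neurons. NaCP60E, a sodium channel relative, averaged 1034 ± 5.73 CPM in Pm2 and 2768 ± 148 CPM in neurons (SD, n = 3 each). The presynaptic calcium channel cac overlapped between groups, at 1211 CPM in Pm2 and 1325 CPM in neurons (adjusted p = 0.245).

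Calcium handling differed in its exchangers and buffers. Calx, the sodium and calcium exchanger of the plasma membrane, stood at 2110.2, 1706 and 1669 CPM in Pm2, against 106, 169 and 122 CPM in neurons (log2 difference 3.79 ± 0.18, adjusted p = 4.44e-08). SERCA, the pump that refills the endoplasmic reticulum, listed as Ca-P60A, stood at 472, 472 and 486 CPM in Pm2, against 142, 146 and 129 CPM in neurons (log2 difference 1.78 ± 0.09, adjusted p = 5.92e-08). Nckx30C, an exchanger that also carries potassium, stood at 51.5, 54.8 and 45.4 CPM in Pm2, against 3273, 3094 and 3049.6 CPM in neurons (log2 difference -5.96 ± 0.11, adjusted p = 1e-10). The calcium-binding proteins Cbp53E and Scp2 averaged 12.3 and 0.516 CPM in Pm2, against 1624 and 358 CPM in neurons. In the list of 14 calcium-binding and buffering genes, 3 (21.4%, near the 22.5% of all genes) were higher. The number lower was 8 (57.1%, against 25.9% of all genes), and 5 without scaling.

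Among 20 genes of cAMP and G protein signalling, 3 were higher, a smaller share than the 22.5% of all genes. The number lower was 14 (70.0%, against 25.9% of all genes), and 10 without scaling. rut, the calcium-responsive adenylate cyclase of the rutabaga learning mutant, stood at 726, 631 and 663 CPM in Pm2, against 146, 186 and 171 CPM in neurons (log2 difference 2.01 ± 0.11, adjusted p = 1.32e-07). The cyclases Ac76E and Ac78C averaged 0.149 and 0.195 CPM in Pm2, against 98.2 and 20.3 CPM in neurons. Pka-C3, a catalytic subunit of a kinase of the protein kinase A group, averaged 0.995 CPM in Pm2 and 191 CPM in neurons. The phosphodiesterase dnc was lower by less, at 393 CPM in Pm2 and 656 CPM in neurons (log2 difference -0.74 ± 0.08, adjusted p = 4.08e-05).

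Cell surface proteins of the dpr and DIP families, immunoglobulin proteins that bind each other across pairs of neurons, were mostly near absent from Pm2. Of 32 genes tested 3 (9.38%) were higher and 26 (81.2%) lower, against 22.5% and 25.9% of all genes. The median log2 difference was -7.30. DIP-zeta, listed as CG31708 (chromosome 2L, 9051631 to 9071164), stood at 1919.8, 1521 and 1577 CPM in Pm2, against 58.6, 70.5 and 64.2 CPM in neurons (log2 difference 4.70 ± 0.13, adjusted p = 8.74e-10). Its mean level was 2.37 CPM in T4 and 0.0247 CPM in glia. dpr11 averaged 365 ± 10.9 CPM in Pm2 and 169 ± 13.9 CPM in neurons, and dpr14 278 ± 2.02 CPM in Pm2 and 210 ± 22.7 CPM in neurons (SD, n = 3 each). Without scaling 5 members were higher, and with all 12 libraries in the fit DIP-zeta was the only one (adjusted p = 0.223 for dpr11 and 0.516 for dpr14). dpr18 and dpr21 (listed as CG42596) overlapped between groups at 258 and 318 CPM in Pm2, against 253 and 308 CPM in neurons. Other DIP genes were lower. DIP-theta (CG31646) had no count in Pm2 and averaged 83.6 CPM in neurons, so it was at least 4460.2-fold lower in Pm2. DIP-kappa (CG31814) averaged 0.0372 CPM in Pm2 and 92.2 CPM in neurons, and DIP-gamma (CG14521) 0.622 CPM in Pm2 and 102 CPM in neurons. DIP-iota (CG11320) overlapped between the groups, at 0.475 CPM in Pm2 and 1.08 CPM in neurons (adjusted p = 0.158).

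The beat and side families, another set of interacting immunoglobulin proteins, had higher and lower members. Of 21 genes 6 (28.6%) were higher and 13 (61.9%) lower, against 22.5% and 25.9% of all genes. The median log2 difference was -3.47. beat-IIa and beat-IIb were higher together. beat-IIa stood at 1039, 1088 and 1064 CPM in Pm2, against 249.8, 241 and 236 CPM in neurons (log2 difference 2.13 ± 0.08, adjusted p = 7.14e-09), and beat-IIb at 639.9, 671 and 686 CPM in Pm2, against 146, 109.7 and 117 CPM in neurons (log2 difference 2.42 ± 0.12, adjusted p = 5.52e-08). beat-IV stood at 481, 468 and 485 CPM in Pm2, against 105, 109.6 and 100.4 CPM in neurons (adjusted p = 1.05e-08, and 0.099 with all 12 libraries in the fit). On the side of the sidestep proteins, side-V, side-III and side-VI, listed as CG34371, CG34113 and CG34114, averaged 449.5, 213 and 389.9 CPM in Pm2, against 116, 124 and 262 CPM in neurons. beat-Va had no count in Pm2 and averaged 39.6 CPM in neurons. beat-Ic, beat-VI and side-VIII (CG12484) averaged 1.37, 3.58 and 0.771 CPM in Pm2, against 283, 269.8 and 181 CPM in neurons.

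**Figure D5:**
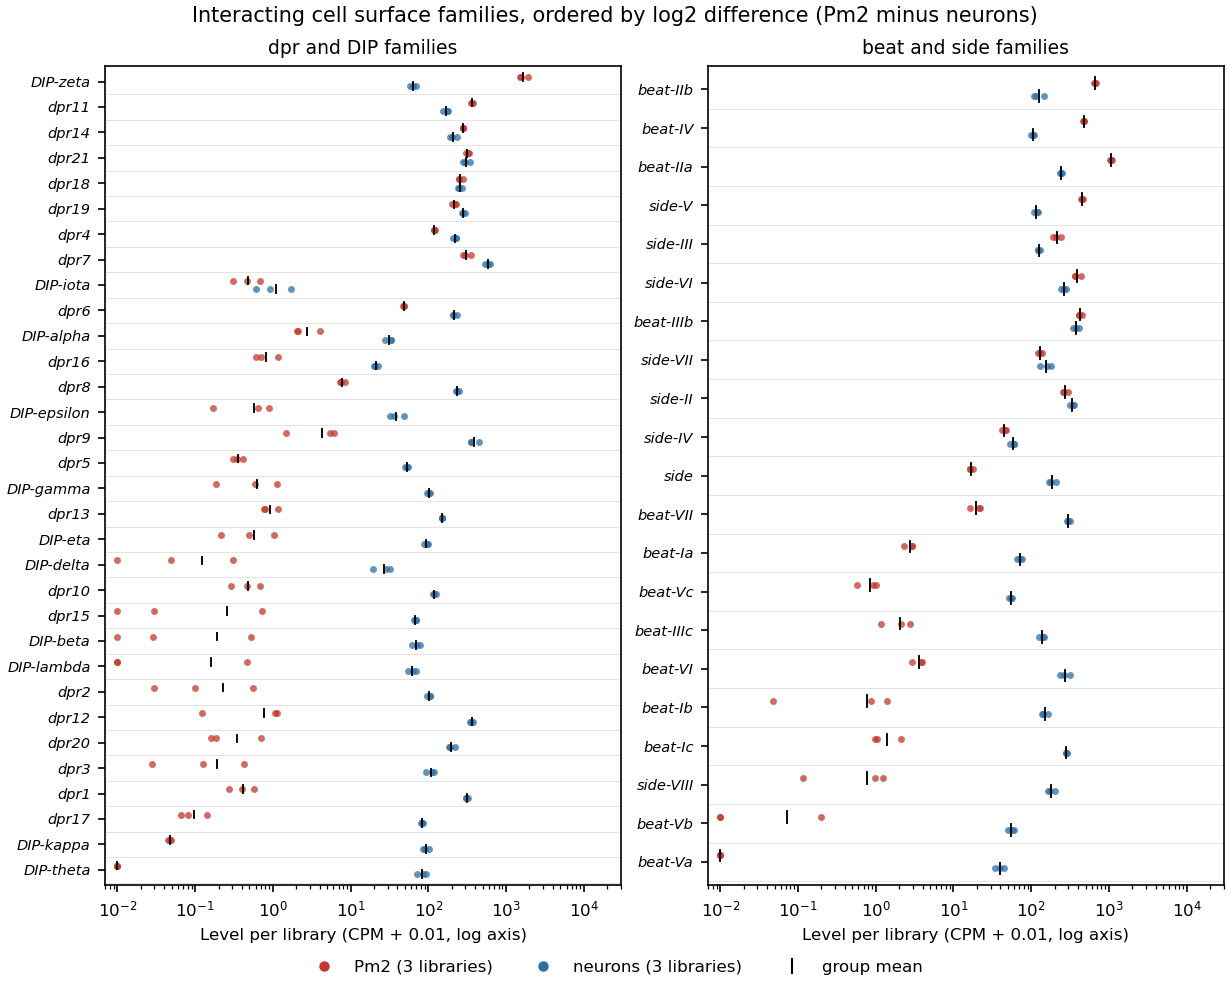
Level of every tested dpr and DIP gene (left) and beat and side gene (right) in each library, in CPM plus 0.01 on a log axis, ordered from the highest to the lowest log2 difference; red points are Pm2 libraries, blue points neuron libraries, and bars group means. DIP-zeta stands alone at the top left with 1673 CPM in Pm2 and 64.4 CPM in neurons, and the lower part of both panels shows Pm2 points below 1 CPM.

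The Slit receptors had opposite calls. robo3 (chromosome 2L, 1256417 to 1296596), a receptor for the repellent Slit, stood at 936, 920 and 903 CPM in Pm2, against 71.7, 84.2 and 90.5 CPM in neurons (log2 difference 3.48 ± 0.11, adjusted p = 1.87e-09). robo averaged 179 CPM in Pm2 and 132 CPM in neurons (log2 difference 0.44 ± 0.10), and robo2, listed as lea, 1.79 CPM in Pm2 and 27.5 CPM in neurons (log2 difference -3.94). The ligand sli was also higher, at 127 CPM in Pm2 and 83.1 CPM in neurons (log2 difference 0.61 ± 0.14, adjusted p = 0.0045). The netrins NetA and NetB averaged 0.00629 and 7.96 CPM in Pm2, against 23.3 and 208 CPM in neurons, while their receptor fra overlapped between the groups, at 68.3 CPM in Pm2 and 67.0 CPM in neurons (adjusted p = 0.865). In all, 7 of 27 guidance genes (25.9%) were higher, near the 22.5% of all genes, and 12 (44.4%) were lower, against 25.9% of all genes; without scaling these were 11 and 6.

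Other adhesion genes included related members with opposite calls. Of 47 adhesion and wiring genes 11 (23.4%, near the 22.5% of all genes) were higher and 26 (55.3%, against 25.9% of all genes) lower. These were 6 and 24 with all 12 libraries in the fit. Dscam4 stood at 1309.6, 1169.8 and 1218 CPM in Pm2, against 247, 342 and 286 CPM in neurons (log2 difference 2.08 ± 0.12, adjusted p = 2.21e-07), while Dscam3 averaged 7.88 CPM in Pm2 and 368 CPM in neurons. The teneurin Ten-m, known for matching synaptic partners, stood at 1084, 1025 and 1083 CPM in Pm2, against 246, 336 and 309 CPM in neurons (log2 difference 1.84 ± 0.12, adjusted p = 4.2e-07). The second teneurin, Ten-a, was lower, at 699.9 CPM in Pm2 and 1084 CPM in neurons. CadN2, a cadherin next to CadN, averaged 291 ± 22.3 CPM in Pm2 and 71.5 ± 11.5 CPM in neurons, and CadN itself overlapped, at 328 CPM in Pm2 and 358 CPM in neurons. rst, an immunoglobulin protein of the irre cell recognition group, stood at 261, 234 and 244 CPM in Pm2, against 23.3, 28.9 and 22.4 CPM in neurons, whereas its binding partner hbs averaged 0.124 CPM in Pm2 and 69.5 CPM in neurons. The immunoglobulin genes klg and tutl and the leucine-rich repeat gene Con fell to 0.591, 12 and 6.76 CPM in Pm2, against 314, 1240.3 and 518 CPM in neurons.

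Synaptic genes had mostly small differences. Of 29 genes of synaptic vesicles and active zones 4 (13.8%) were higher and 15 (51.7%) lower, against 22.5% and 25.9% of all genes. The median log2 difference was -0.35. Without scaling the median was 0.01, with 6 higher and 8 lower. brp, the active zone scaffold Bruchpilot, stood at 1933, 1690.4 and 1899.9 CPM in Pm2, against 1089, 1234 and 1079.9 CPM in neurons (log2 difference 0.70 ± 0.09, adjusted p = 9.4e-05). Rim, another active zone protein, averaged 2398 ± 25.6 CPM in Pm2 and 1448 ± 154 CPM in neurons (SD, n = 3 each, adjusted p = 6.64e-05, and 0.0877 with all 12 libraries in the fit). Rab3-GEF and Synj, which act in the vesicle cycle, were the other two. Syt1, the calcium sensor of fast release, averaged 1881 ± 273 CPM in Pm2 and 3564 ± 112 CPM in neurons, and unc-13, which primes vesicles, 1570.3 ± 47.2 CPM in Pm2 and 2668 ± 158 CPM in neurons (SD, n = 3 each). Frq1, a calcium-binding protein of nerve terminals, stood at 27.7, 29.7 and 29.6 CPM in Pm2, against 1190.1, 1073 and 1121 CPM in neurons (log2 difference -5.28 ± 0.10, adjusted p = 1.07e-10), a value made uncertain by its near-identical paralog Frq2. cpx and Sap47 overlapped between the groups, at 5053 and 3465 CPM in Pm2, against 5412 and 3813 CPM in neurons. Of 18 pan-neuronal genes 2 (11.1%, against 22.5% of all genes) were higher and 10 (55.6%, against 25.9%) lower. Without scaling these were 3 and 5, and the higher count was 1 without any single Pm2 library and without neuron library 3. elav, whose driver defined the neuron group, averaged 418 ± 24.0 CPM in Pm2 and 641 ± 7.62 CPM in neurons, and nSyb 2349 ± 78.8 CPM in Pm2 and 2997 ± 85.3 CPM in neurons (SD, n = 3 each). Both were called lower with TMM scaling but not without scaling, where the log2 difference of nSyb was 0.01.

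Of 20 glial genes tested, 12 were lower in Pm2, 7 were not called and 1 was higher. They summed to 75 to 107 CPM in Pm2 libraries and 598 to 929 CPM in neuron libraries, and Eaat1 alone made up a mean of 488 CPM of the sum in neurons. A second gene was called higher without neuron library 3, with limma-voom and without scaling. repo, the defining transcription factor of glia, had no count in Pm2 and 1.16, 0.467 and 0.91 CPM in neurons. nrv2 and alrm, also glial, averaged 19.5 and 1.14 CPM in Pm2, against 81.7 and 14.6 CPM in neurons. The higher gene was the trehalose transporter Tret1-1, at 18.2, 37.6 and 34.9 CPM in Pm2, against 4.79, 15.2 and 12.2 CPM in neurons (adjusted p = 0.00877), and its mean in the glia libraries was 608 CPM. Sums of the 5 haemocyte genes tested were 6.36 to 7.56 CPM in Pm2 and 143 to 167 CPM in neurons, most of it Pxn in neurons (113 CPM). The 4 tested fat body genes summed to 0.151 to 0.319 CPM in Pm2 and 4.52 to 11.5 CPM in neurons. The 12 photoreceptor genes tested, some of them also used by other neurons, summed to 519 to 531 CPM in Pm2 and 938 to 1011 CPM in neurons. The rhodopsins Rh3 and Rh6 had at most 1 count in a Pm2 library, and of the neuron libraries they were found in library 2 alone, at 0.849 CPM of Rh3 and 0.191 CPM of Rh6. The 9 muscle genes tested summed to 123 to 132 CPM in Pm2 and 101 to 123 CPM in neurons, nearly all of it Tm1, a tropomyosin gene that is not restricted to muscle and was not called, at 126 CPM in Pm2 and 108 CPM in neurons. Of the 9 muscle genes, 3 (33.3%, against 25.9% of all genes) were lower. None of the 8 other than Tm1 had a mean above 2 CPM in either group. What part the share of glia in the neuron libraries had in these differences, and in Eaat1 and Gs2, was not tested.

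Of 14 heat-shock genes 7 (50.0%, against 25.9% of all genes) were lower in Pm2 and 3 (21.4%, near the 22.5% of all genes) were higher. The median log2 difference was -1.85. There were 4 lower when all 12 libraries entered the fit and 5 higher without scaling. Hsp70Bb stood at 297, 323 and 310.4 CPM in Pm2, against 13, 9.53 and 21.6 CPM in neurons (log2 difference 4.40 ± 0.26, adjusted p = 2.46e-07), whereas its near-identical copies Hsp70Ab and Hsp70Bc averaged 0.555 and 2.4 CPM in Pm2, against 2.7 and 13.2 CPM in neurons. Reads shared between these copies make the split between them uncertain. Hsp83, the fly Hsp90, averaged 3160.2 ± 119.9 CPM in Pm2 and 1378 ± 38.5 CPM in neurons, and the co-chaperone DnaJ-1 179.6 ± 14.5 CPM in Pm2 and 128 ± 5.26 CPM in neurons (SD, n = 3 each). Of 13 glycolysis genes 6 (46.2%, against 22.5% of all genes) were higher and none lower. Under the alternatives 1 was lower with DESeq2, with library totals and without neuron library 1. The count higher was 4 with library totals and without Pm2 library 2 or 3 or neuron library 2 or 3. It was 10 without scaling. Pfk, the committing enzyme of glycolysis, averaged 499 ± 31.5 CPM in Pm2 and 284 ± 21.7 CPM in neurons, and Eno 1678 ± 65.8 CPM in Pm2 and 1052 ± 201 CPM in neurons (SD, n = 3 each). None of the 6 differed by 2-fold.

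The largest differences by fold were found in genes with few or no reads in one group. Dhc1, listed as CG9492 (chromosome 3R, 9651179 to 9674643), a dynein heavy chain gene, stood at 228, 252 and 252 CPM in Pm2, against 0.0527, 1.06 and 0.0983 CPM in neurons (adjusted p = 1.13e-07). Tektin-C, which encodes a protein of axonemal microtubules, stood at 83.7, 91.5 and 92.0 CPM in Pm2, against 0.342, 0.0849 and 0.295 CPM in neurons (log2 difference 8.57 ± 0.26, adjusted p = 1.67e-09). y, the yellow gene of cuticle pigmentation, stood at 42.0, 46.8 and 45.6 CPM in Pm2, against 0.158, 0 and 0.541 CPM in neurons. The cytochrome P450 genes Cyp313a2 and Cyp313a3, together with Fst, CG5565 and FoxL1 (listed as fd64A), had no count in neurons. Against a floor of 3 counts over the neuron group Cyp313a2 was at least 357-fold higher in Pm2, although its level there was only 7.3, 10.3 and 8.1 CPM. sordd2 (listed as CG32581), the noncoding gene CR45973, Vml and CG11052 were the remaining 4 of the 12 largest, at mean levels of 21.6, 9.32, 10.7 and 6.67 CPM in Pm2. At the other end, witty (listed as CG14274, chromosome 2L, 8338287 to 8342056) had no count in Pm2 and 198, 183 and 186 CPM in neurons, at least 10152-fold lower. The remaining largest lower genes, all without a count in Pm2, were Ets65A, hbn, DIP-theta, MsR1, beat-Va, AstC-R1, ham and tj, named above, with the signalling ligand Wnt4, the activin-binding follistatin gene Fs and the Runt family gene RunxB at 35.9, 23.8 and 22.4 CPM in neurons.

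Among genes with a mean of at least 300 CPM in the higher group, the ranking brought up other names. These genes were ranked after their values had been seen. Hmx (chromosome 3R, 17558930 to 17569097), a homeodomain gene, stood at 314, 299.8 and 332 CPM in Pm2, against 8.69, 6.54 and 9.05 CPM in neurons (log2 difference 5.29 ± 0.14, adjusted p = 8.74e-10). CG11294, listed by number only, stood at 1128, 1125 and 1190.5 CPM in Pm2, against 77.9, 61.6 and 56.8 CPM in neurons (log2 difference 4.13 ± 0.13, adjusted p = 2.2e-09). NLaz, a lipocalin, averaged 1284 ± 72.9 CPM in Pm2 and 61.4 ± 7.42 CPM in neurons, and speck (listed as Dat), which acetylates monoamines, 885 ± 59.9 CPM in Pm2 and 51.0 ± 5.01 CPM in neurons (SD, n = 3 each). nord averaged 369 ± 22.4 CPM in Pm2 and 14 ± 0.824 CPM in neurons, and the exchange factor GEFmeso 339 ± 21.6 CPM in Pm2 and 10.6 ± 1.52 CPM in neurons. Hsp70Bb, DIP-zeta, Calx and CG5196 were the other 4. In the lower direction the ranking gave sNPF, VGlut, Tk, Vmat, scro, nAChRalpha6 and dpr1, which are described above or, for dpr1, averaged 0.403 CPM in Pm2 and 313 CPM in neurons. It also gave Jhbp2 (listed as CG2016), sosie and CG9896, at 0.53, 0.272 and 0.526 CPM in Pm2, against 1069.9, 518 and 729 CPM in neurons.

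A few genes outside the lists were picked after their values were seen. X11Lbeta, an adaptor protein of the Mint family, stood at 7137, 6988 and 7310.4 CPM in Pm2, against 713, 1069 and 750.2 CPM in neurons (log2 difference 3.08 ± 0.15, adjusted p = 4.33e-08). mask, an ankyrin repeat protein, averaged 5595 ± 154 CPM in Pm2 and 568 ± 74.6 CPM in neurons, and Patronin, which protects microtubule minus ends, 2307 ± 57.4 CPM in Pm2 and 217 ± 44.0 CPM in neurons (SD, n = 3 each). mask and Patronin were also high in glia, at means of 5092 and 999 CPM. mab-21 averaged 302 CPM in Pm2 and 32.7 CPM in neurons. The channel gene Cngl, of the cyclic nucleotide-gated family, stood at 1.7, 1.25 and 2.78 CPM in Pm2, against 956, 991 and 1091 CPM in neurons (log2 difference -9.05 ± 0.25, adjusted p = 1.03e-09).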

How the data were processed

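RNA was measured in sorted optic lobe populations of 3-day-old flies, in 3 libraries each of Pm2 neurons, all neurons, T4 neurons and glia. The authors deposited 1 table of counts per gene. Its title calls the values normalized without saying how, and its values are whole numbers, so they were used as counts. Reads were trimmed with Trimmomatic 0.32, aligned with STAR 2.5.2 and counted with HTSeq 0.6.1 on BDGP6, per the submitters' processing notes. No strand setting is given in the sources used here, so reads of overlapping antisense genes cannot be told apart. The neuron columns are numbered 1 to 3 in the table, and the labels give the group's libraries other numbers, so these columns were tied to the group and not to single samples.

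From the counts, genes reaching 10 counts in 3 or more of the 12 libraries were kept and scaled by TMM over all 12 libraries. The 6 Pm2 and neuron libraries were fitted by edgeR's quasi-likelihood test (edgeR 4.0.16, limma 3.58.1, R 4.3.3, two-sided), with Benjamini-Hochberg adjustment over all tested genes. The T4 and glia libraries were left out of that fit so that their spread did not enter it. Earlier results of these data, for VGAT, were known when this fit was chosen. The procedure was tested on simulated data in which a far smaller share of genes differed than was called here. That test therefore cannot show how the scaling performs on data such as these. A floor of 3 counts over a group served for genes at 0, and such bounds cover counting error only. In the Ensembl annotation of BDGP6, 11991 gene names were found as current symbols, 4142 as synonyms and 139 not at all.

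The text names the 12 largest called differences in each direction whose higher group averaged 100 counts or more and whose groups did not overlap. It also names all transmitter list members and, from other lists, up to 5 called members with the smallest adjusted p. Further list members, the 10 largest differences in each direction at 300 CPM or more, and single genes were chosen after their values were seen. The gene lists and the comparison itself were chosen with earlier results of these data known. Alternatives were other scalings, filters and fits, DESeq2 1.42.0, limma-voom, and leaving out each library.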

Additional observations from a re-analysis of the deposited data

How the results depend on the processing

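Under the 16 alternatives, the number of genes called higher in Pm2 than in neurons stayed within 1.5 times of 2364 and the number called lower within 1.5 times of 2730, except without scaling, where 3624 were higher and 1594 lower. Leaving out 1 library at a time gave 2022 to 2350 higher and 2323 to 2637 lower genes. DESeq2 called 2407 higher and 2953 lower, and limma-voom 2480 and 2870. A call in the same direction was made under every alternative for 2834 genes. Of the 335 named genes tested, 2 that were called, Gs1 and nSyb, turned direction without scaling, to log2 differences of 0.12 and 0.01 (adjusted p = 0.485 and 0.948). Changes of sign in genes called in neither fit were not counted. With all 12 libraries in the fit 35 named genes lost their call. The causes were not tested. No paired analysis was possible because the Pm2 and neuron libraries share no replicate numbers. Low counts limit genes below about 1 CPM. Sorted by mean level in neurons alone, 12% of the genes below 1 CPM there were called higher and 13.4% lower. These include genes such as Tektin-C that were well above 1 CPM in Pm2.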

Other observations

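Genes of chromosome 4 were more often called lower in Pm2 than those of other chromosomes. Of 94 tested genes there 51 (54.3%) were lower and 9 (9.57%) higher in Pm2 than in neurons, with a median log2 difference of -0.62. On the other arms 22.5% to 27.6% were lower and 19.5% to 26.1% higher, with medians between -0.15 on 3L and 0.02 on X. The number of chromosome 4 genes called lower was 28 to 59 under the alternatives, and the number called higher 8 to 14. The difference between chromosomes was not tested. Of 730 noncoding RNA genes 12.2% were higher and 25.5% lower in Pm2, against 23.4% and 26.0% of the 9600 protein-coding genes.

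Of the mitochondrially encoded genes 6 of 13 tested (46.2%, against 25.9% of all genes) were lower in Pm2 and none higher. All 3 Pm2 libraries lay below all 3 neuron libraries for 4 of the 13. The count lower was 3 without scaling, 5 with all 12 libraries in the fit, with DESeq2 and with limma-voom, and 12 without neuron library 1. Mitochondrial and ribosomal RNA genes together held 0.995% to 1.87% of the counts in Pm2 libraries and 1.49% to 4.34% in neuron libraries. Of 86 ribosomal protein genes 20 (23.3%, near the 22.5% of all genes) were higher and 14 (16.3%) lower in Pm2, a split that moved with most alternatives. It became 41 and 4 without scaling and 7 and 5 with all 12 libraries in the fit. The count lower ranged from 8 to 25 when 1 library was left out, with 25 without neuron library 1.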
